A study of Mus musculus with 2 samples.

Results

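Cathepsins B, D, L, Z and K (Ctsb, Ctsd, Ctsl, Ctsz, Ctsk), the hydrolases hexosaminidase A (Hexa) and lysosomal acid lipase (Lipa), the sterol carrier Npc2 and the lysosomal membrane protein Cd68 were followed across the cell classes of the mouse aorta. The genes were chosen by name, and all 9 had a row in both count matrices, which together held 19357 genes. Cells came from aortae of male C57BL/6 mice without apolipoprotein E (Apoe -/-), an atherosclerosis-prone genotype that both groups carried. Mice of the diabetic group received streptozotocin, a toxin of insulin-producing cells, at 55 mg/kg per day for 5 days from the age of 6 weeks, and control mice received the citrate vehicle. All mice were followed for 10 weeks, and their aortae were collected at the age of 17 weeks. Cells of 4 mice were pooled in each group and sorted for viability, and each pool gave 1 single-cell RNA library. No difference between the groups therefore has a replicate, no test across mice was possible, and every interval below covers counting error of the unique molecular identifiers (UMIs) only.

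Lysosomes are acidic organelles in which proteins, lipids and sugar chains taken up or recycled by the cell are broken down. Macrophages of the atherosclerotic wall carry many of them, since they take up lipoproteins and dead cells, and cathepsins released from macrophages, smooth muscle cells and fibroblasts can also cut elastin and collagen outside the cell. Ctsb (chr14:63122462-63145923, plus strand), Ctsl (chr13:64359337-64370890, minus strand), Ctsz (chr2:174427493-174439039, minus strand) and Ctsk (chr3:95499256-95509362, plus strand) encode papain-type cysteine proteases. Ctsb cuts dipeptides from protein ends as well as peptide bonds within chains, Ctsl is a general endopeptidase, Ctsz removes single residues from the carboxyl end, and Ctsk is known for cutting collagen and elastin, above all in osteoclasts. Ctsd (chr7:142375911-142388038, minus strand) is the main aspartic protease of the lysosome. Hexa (chr9:59539540-59565109, plus strand) encodes the alpha subunit of the enzyme that degrades ganglioside GM2, and Lipa (chr19:34492318-34527474, minus strand) the lipase that frees cholesterol from the cholesteryl esters of lipoproteins. Npc2 (chr12:84754562-84773152, minus strand) binds that free cholesterol in the lumen and passes it on for export. Cd68 (chr11:69664213-69666153, minus strand) encodes a heavily glycosylated membrane protein of late endosomes and lysosomes that is used as a macrophage marker. Gene positions are on GRCm38, from the GENCODE M21 annotation, and all 9 genes are protein-coding.

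The bases before the gene starts were searched for motifs of factors with a known link to lysosomal genes or to the study's subject, the AP-1 complex of Fos and Jun proteins. TFEB and its relatives, which switch on many lysosomal genes, bind sites built on CACGTG, and TCACGTGA is a longer version that contains it. AP-1 binds TGANTCA. Each motif reads the same on both strands, and the window was the 250 bases before the start in RefSeq's table for GRCm38.p6, in which 8 of the 9 genes were found and Ctsb was not. Among 32851 such windows, 6.02% held CACGTG, 0.79% held TCACGTGA and 6.75% held TGANTCA. Ctsd held CACGTG at 245 and at 98 bases before its start, the latter within TCACGTGA. The Ctsl window held CACGTG 1 time, at 236 bases, and Cd68 held TGANTCA at 149 and at 24 bases. The GENCODE annotation places the starts of Ctsd and Ctsl further upstream than RefSeq's table does: counted from the GENCODE start, the Ctsd match at 245 bases lay 34 bases before it, the one at 98 bases 113 bases after it, and the Ctsl match 134 bases after it. Ctsz, Ctsk, Hexa, Lipa and Npc2 held none of the 3 motifs, which says only that these letters are not in the window. The matches are given 5′ to 3′ on the gene's strand with the motif in capitals, because these genes go on to differ in their cell classes. The whole window of Ctsk is added because of its diabetic over control ratios in VSMCs-2 (0.438) and Fib-2 (0.468). They were the lowest of the 9 genes in the 7 compared classes, among ratios with at least 100 UMIs over both libraries. In Fib-3 Ctsk (0.789) was not the lowest.
Ctsd, chr7:142388055-142388077, minus strand: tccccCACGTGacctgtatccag
Ctsd, chr7:142387908-142387937, minus strand: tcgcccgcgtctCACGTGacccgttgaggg
Ctsl, chr13:64370739-64370768, minus strand: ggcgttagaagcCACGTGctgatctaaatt
Cd68, chr11:69666302-69666331, minus strand: gtaagttccgtgTGAGTCAgctgcctcatt
Cd68, chr11:69666177-69666206, minus strand: agctgaggtgtcTGAGTCAggtttggggtg
Ctsk, chr3:95498960-95499209, plus strand: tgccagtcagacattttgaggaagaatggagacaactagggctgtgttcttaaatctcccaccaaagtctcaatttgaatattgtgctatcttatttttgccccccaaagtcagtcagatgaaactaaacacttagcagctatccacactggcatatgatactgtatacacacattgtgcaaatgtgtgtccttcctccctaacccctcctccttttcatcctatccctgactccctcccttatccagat
The Ctsk window had 43.2% G and C and 0 CpG pairs, the lowest of the windows of the 8 genes found. Ctsd had the highest of both, 67.2% and 27 CpG pairs, and the median over all windows was 52.4% and 6. Counted from the GENCODE start, most of the Ctsd window lies within the gene. These matches describe letters, and binding was not measured.

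The control library held 3060 cells with a class from the authors (12390769 UMIs) and the diabetic library 2524 (11833577 UMIs). There were 13 classes, and 7 of them had at least 50 cells in each library and were compared. The labels were checked against marker lists: the macrophage list of 12 genes summed to 35239 CPM, the UMIs of a gene scaled by the UMIs of its class to a common total, in control Mac cells and to at most 382 CPM in the 3 fibroblast, 2 smooth muscle and 1 endothelial classes. Fibroblast markers summed to 39989 CPM in control Fib-2 cells, smooth muscle markers to 48553 CPM in VSMCs-2 and endothelial markers to 6927 CPM in ECs. Control NKT Cells held more macrophage (6351 CPM) than T and NK cell markers (4403 CPM). Control T cells held more neutrophil (3497 CPM) than T and NK cell markers (3059 CPM). Both orders were reversed in the diabetic library. The foam cell list summed to 18331 CPM in control Mono and 18495 CPM in control Foam cells. Haemoglobin genes and Alas2 summed to more than the class's own markers in ECs (8012 and 7624 CPM in the control and diabetic libraries) and in diabetic Fib-1 (46236 against 33469.9 CPM), VSMCs-1 (37120.5 against 30393 CPM) and Fib-3 (20472 against 18717 CPM). Scaling without mitochondrial, ribosomal protein and haemoglobin genes left the counts of the 9 genes past the fold below as they were in those 4 classes. Class shares differed between the libraries, with Mac at 16.7% of control and 9.07% of diabetic cells and VSMCs-2 at 16.2% and 33.9%. Over the cells with a class only, haemoglobin made up 0.217% of control and 1.14% of diabetic UMIs. Of their barcodes, 8 occurred in both libraries.

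Foam cells, the lipid-laden macrophage class, held the highest control level of Ctsb, Ctsd, Ctsz, Cd68, Hexa, Lipa and Npc2 among the classes with at least 20 cells, while Ctsl and Ctsk were highest in Fib-2. The classes were defined by the authors from these transcripts, so the order of levels is a description without a test. Levels are CPM of a class with exact Poisson 95% intervals, and they were compared between classes of 1 gene, not between genes.

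**Figure D1:**
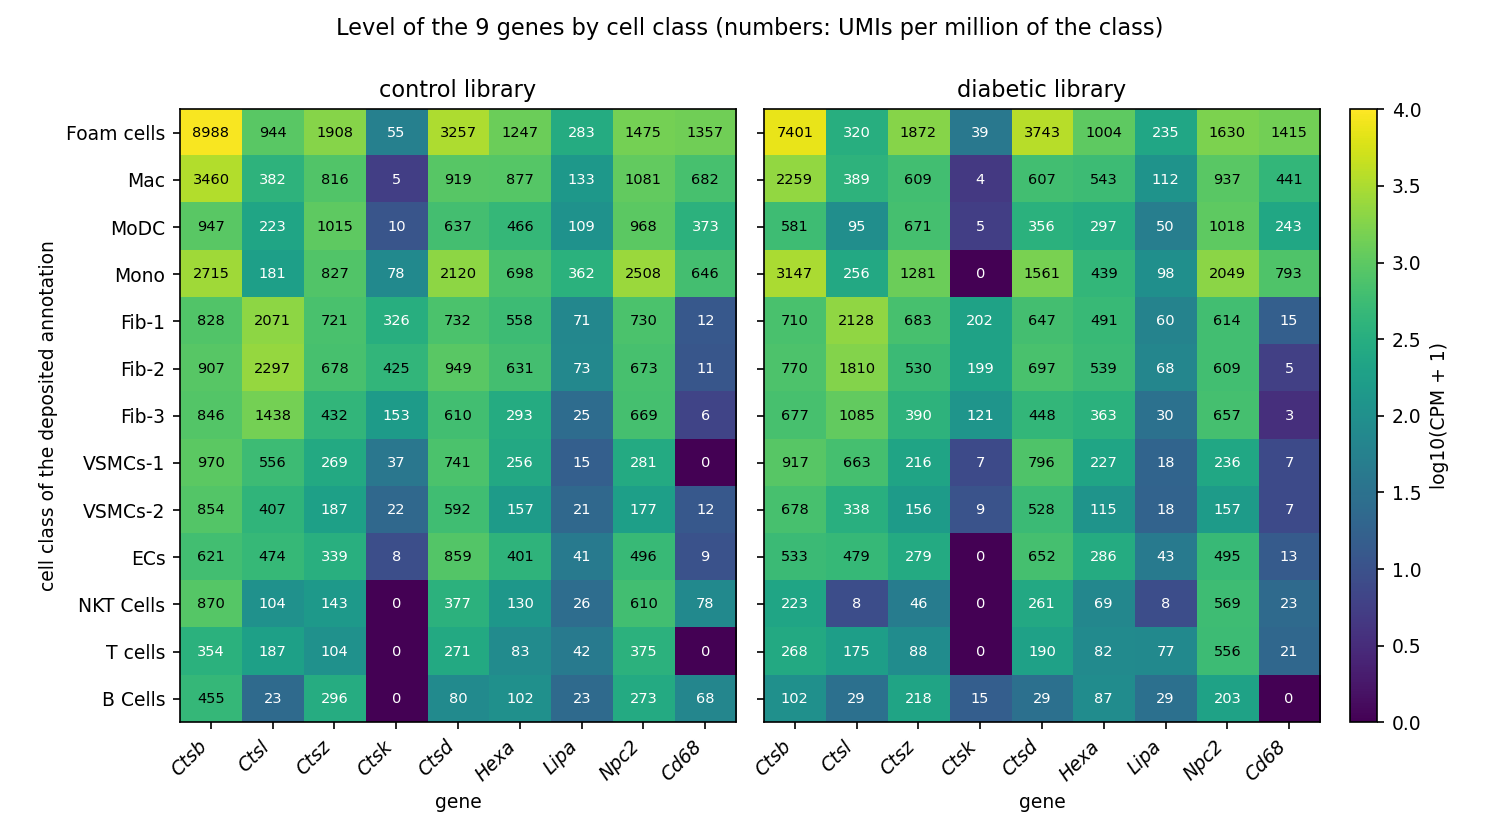
Level of each gene (columns) in each cell class (rows), in the control library at left and the diabetic library at right. Numbers are CPM and the color is log10(CPM + 1). Ctsb peaks in Foam cells, followed by Mac in the control library and by Mono (3147 CPM, 19 cells) in the diabetic library. Ctsl and Ctsk peak in the 3 Fib rows, and Cd68 is at 15.1 CPM or less in the Fib, VSMCs and ECs rows of both libraries.

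Ctsb stood at 8988 CPM (8623 to 9364) in control Foam cells and 3460.4 CPM (3389 to 3532) in control Mac cells. Among the other control classes of at least 20 cells, 7 followed with overlapping neighbours, from VSMCs-1 at 969.9 CPM down to Fib-1 at 828 CPM. ECs lay lower at 621 CPM (575 to 670). The diabetic library gave 7401 CPM in Foam cells, 2259 CPM in Mac and 533 CPM in ECs. MoDC, at 947 and 581 CPM, lay within the range of the fibroblast, smooth muscle and endothelial classes.

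Ctsl was highest in the fibroblast classes instead. Control Fib-2 cells held 2297 CPM (2248 to 2347), Fib-1 2071 CPM (1949 to 2198) and Fib-3 1438 CPM, each separated from the next by its interval. Control Foam cells followed at 944 CPM and Mac cells were at 382 CPM (359 to 407). In the diabetic library Fib-1 led with 2128 CPM (1974 to 2291), above Fib-2 with 1810 CPM (1753 to 1868). Fib-2 cells alone carried 61.4% of the control Ctsl UMIs and 46.9% of the diabetic ones.

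Most Ctsk UMIs came from fibroblasts. Control levels were 425 CPM (405 to 447) in Fib-2, 326 CPM (279 to 379) in Fib-1 and 153 CPM (126 to 185) in Fib-3, and Mac cells held 4.59 CPM (2.37 to 8.01) from 12 UMIs. In the diabetic library Fib-1 (202 CPM, 156 to 256) and Fib-2 (199 CPM, 180 to 219) did not differ beyond their intervals. Fib-2 held 79.8% of all control and 69.6% of all diabetic Ctsk UMIs. With each cell thinned to 1000 UMIs, 27.7% of control Fib-2 cells had a Ctsk UMI (exact Clopper-Pearson 95% interval 24.8 to 30.7). The share was 0.40% in Mac cells (0.05 to 1.45), and how much of it was free RNA was not measured. The unthinned shares were 64.7% and 0.78%, at median depths of 3770 and 4506 UMIs per cell, and thinning left out 0 Fib-2 and 13 Mac cells. The osteoclast list of 5 genes summed to 320 control and 97 diabetic UMIs in Fib-2, a ratio of 0.521 (0.411 to 0.656), of which 317 and 95 were from Acp5, while Ocstamp and Dcstamp were at 0 in both libraries.

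Ctsz stood at 1908 CPM in control Foam cells, 1015 CPM (878 to 1167) in the class labelled MoDC and 816 CPM (782 to 851) in Mac, with Fib-1 at 721 CPM overlapping Mac. VSMCs-2 held 187 CPM (171 to 204). Among the classes of at least 20 cells in the diabetic library, Fib-1 (683 CPM) and MoDC (671 CPM) led with overlapping intervals, followed by Mac (609 CPM), which overlapped MoDC. Diabetic Foam cells, outside that order with 17 cells, held more Ctsz at 1871.5 CPM.

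Ctsd varied less among the large classes. Control Foam cells held 3257 CPM (3039 to 3487), and the 7 compared classes lay between 592 CPM in VSMCs-2 and 949 CPM in Fib-2, where Fib-2 and Mac (919 CPM) overlapped. Diabetic levels of the 7 ran from 448 CPM in Fib-3 to 796 CPM in VSMCs-1. B Cells were far lower, at 79.6 CPM (32.0 to 164) from 7 control UMIs.

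The hydrolase genes and the sterol carrier were highest in Foam cells and next highest in Mac among the control classes with at least 20 cells. Hexa stood at 1247 CPM in control Foam cells, 877 CPM (842 to 914) in Mac and 631 CPM (606 to 658) in Fib-2, with VSMCs-2 at 157 CPM. Lipa was sparse, at 283 CPM (222 to 357) in control Foam cells, 133 CPM (119 to 148) in Mac and 73.2 CPM in Fib-2, and its VSMCs-1 value of 15.4 CPM rested on 5 UMIs. Npc2 reached 1475 CPM in control Foam cells, 1081 CPM (1042 to 1122) in Mac, 968 CPM in MoDC and 177 CPM in VSMCs-2. In the diabetic library MoDC (1018 CPM) and Mac (937 CPM) overlapped for Npc2.

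Cd68 separated the myeloid classes from the rest. Control Foam cells held 1357 CPM (1218 to 1508), Mac 682 CPM (651 to 714) and MoDC 373 CPM (292 to 469), while the Fib, VSMCs and ECs classes were at 11.9 CPM or less. No Cd68 UMI was found in control VSMCs-1, where the exact Poisson interval reaches 11.4 CPM and the limit of 3 UMIs set for a count of 0 equals 9.27 CPM. After thinning to 1000 UMIs, 48.1% of control Mac cells (43.6 to 52.6) had a Cd68 UMI, against 0.88% of Fib-2 cells (0.38 to 1.73). How much of the Fib-2 share was free RNA was not measured. Unthinned, the shares were 88.6% and 4.19%. Mac held 76.6% of the control and 54.7% of the diabetic Cd68 UMIs, and Foam cells 14.8% and 23.8%.

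Within a cell, the 9 genes together made up a median of 1.37% of the UMIs of control Foam cells and 0.797% of control Mac cells (10th to 90th percentile 0.448 to 1.41%). Control Fib-2 cells had a median of 0.622% and VSMCs-2 cells of 0.232%. Diabetic medians were 1.01% for Foam cells, 0.526% for Mac (0.209 to 1.32%), 0.481% for Fib-2 and 0.191% for VSMCs-2. In Foam cells the sum was uneven, since the 7 of 35 control cells with over 3% carried 51.2% of the class's UMIs of these genes and 3 of 17 diabetic cells carried 43.9%. A few shallow cells also stood out in Mac: 4 of 510 control cells (503 to 2037 UMIs) and 5 of 229 diabetic cells (699 to 1372 UMIs) passed 3%, and they held 1.02% and 7.43% of the class's UMIs of the 9 genes.

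The likeness of patterns was measured over 22 profiles, each a class of at least 20 cells in 1 library, with Pearson's r of log2(CPM + 1) among 8137 genes. Profiles from 1 library share that library, so r is a description. Ctsb was most like Atp6v0b (r = 0.94), a subunit of the proton pump that acidifies the lysosome, followed by Gusb and Ctsa, and Ctsd was most like the pump accessory subunit Atp6ap1 (r = 0.94). Cd68 was nearest to Cd14 and Csf1r (both r = 0.93), Hexa to Lamp2 (r = 0.92) and Ctsz to Hexa (r = 0.90). Lipa was nearest to Renbp (r = 0.83) and Npc2 to Ftl1 (r = 0.93). Ctsl was nearest to Bag3 (r = 0.93) and Ctsk to Gsn (r = 0.89), the gelsolin gene. Among the 9 genes themselves r ran from 0.90 for Ctsz and Hexa to -0.31 for Ctsk and Cd68, and Ctsl and Ctsk had r = 0.77.

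Diabetic and control libraries were then compared within each class. A gene was counted as measured with at least 30 UMIs over both libraries and as past the fold where the diabetic over control CPM ratio was at least 1.5 or at most 1/1.5. No measured gene of the 9 was higher past this fold in any of the 7 classes. Ratios are given with exact conditional binomial 95% intervals.

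**Figure D2:**
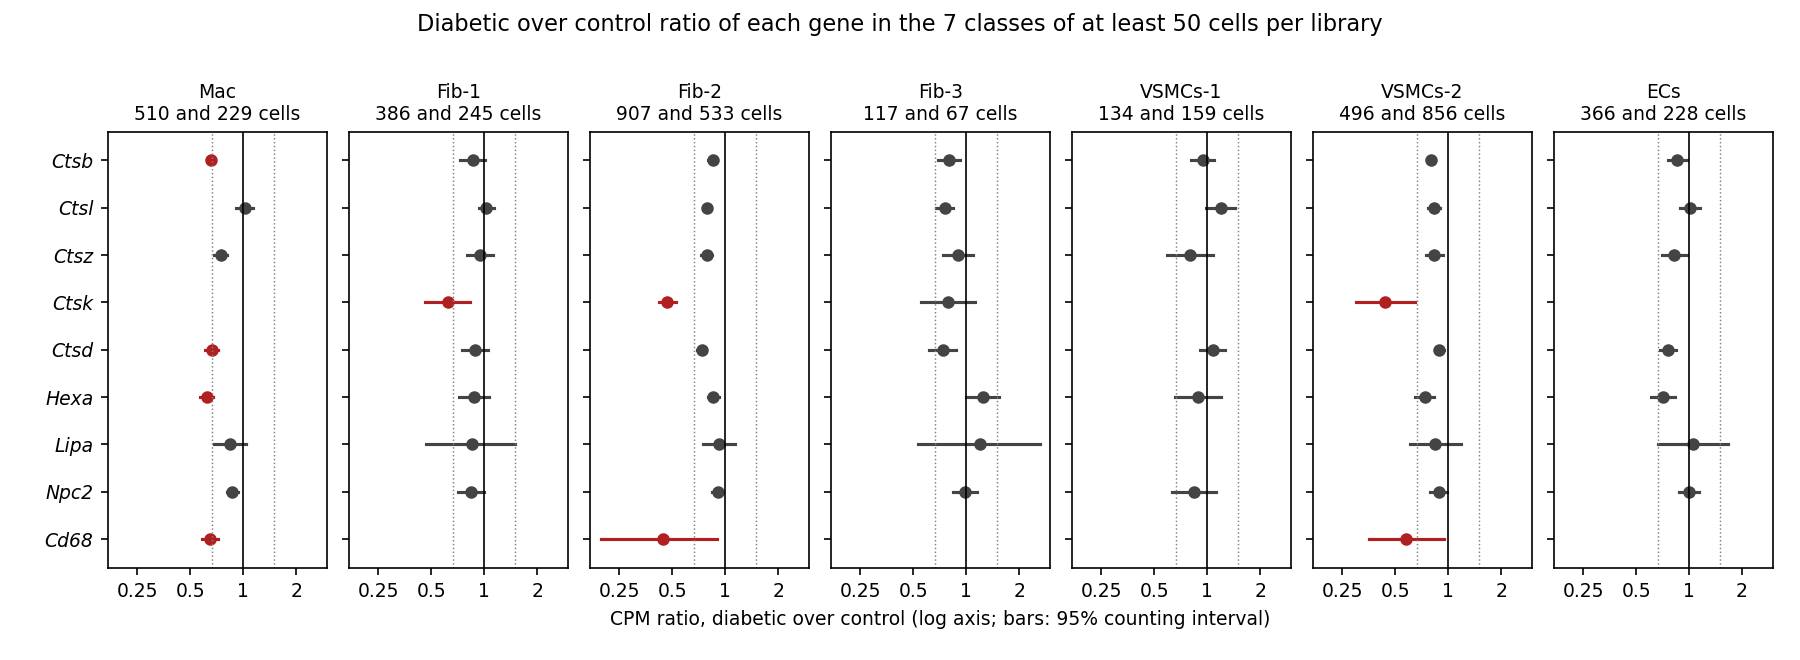
Diabetic over control CPM ratio (log axis) of each gene in the 7 compared classes, with 95% counting intervals; the panel titles give control and diabetic cell numbers, dotted lines mark 1.5-fold either way, red marks ratios past it and genes under 30 UMIs are left blank. The red points, 4 in Mac, 2 in VSMCs-2, 1 in Fib-1 and 2 in Fib-2, all lie below 1.

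In Mac cells 4 of 8 measured genes were lower past the fold, where 9.37% of 7373 measured genes were lower and 23.3% past it either way. The median log2 ratio of the 8 was -0.51, against 0.06 over all measured genes. Ctsb went from 3460.4 CPM (9053 UMIs) in control to 2259 CPM (2552 UMIs) in diabetic cells, a ratio of 0.653 (0.625 to 0.682). Hexa went from 877 to 543 CPM, a ratio of 0.619 (0.565 to 0.677), and Cd68 from 682 to 441 CPM, a ratio of 0.646 (0.584 to 0.714). Ctsd went from 919 to 607 CPM, a ratio of 0.661 (0.606 to 0.719), but with every cell given equal weight its ratio turned to 1.07. Its median over Mac cells was lower in the diabetic library, at 6.78 UMIs per 10000 in control and 3.75 in diabetic cells.

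The other 4 measured genes in Mac stayed inside the fold. Ctsz had a ratio of 0.746 (0.684 to 0.814; 816 and 609 CPM) and Npc2 of 0.866 (0.806 to 0.930; 1081 and 937 CPM), both with intervals below 1. Lipa had a ratio of 0.845 (0.684 to 1.04) from 348 and 127 UMIs, and its interval spans 1. Ctsl stood at 382 CPM in control and 389 CPM in diabetic Mac cells, a ratio of 1.02 (0.909 to 1.14). A single diabetic cell held 18.9% of the Ctsl UMIs there, and without the cell with most Ctsl UMIs in each library the ratio was 0.851. The median Ctsl level over Mac cells was 2.66 UMIs per 10000 in control and 1.57 in diabetic cells. Ctsk had 12 and 4 UMIs in Mac and was not measured. Trimmed mean scaling moved all Mac ratios by -0.12 on the log2 scale, and the 4 ratios past the fold stayed past it. Those 4 lay near the limit: scaled without mitochondrial, ribosomal protein and haemoglobin genes, Hexa (0.664) was still past it, while Ctsb (0.701), Cd68 (0.694) and Ctsd (0.709) were not, and with equal cell weight 0 of the 8 were past it.

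**Figure D3:**
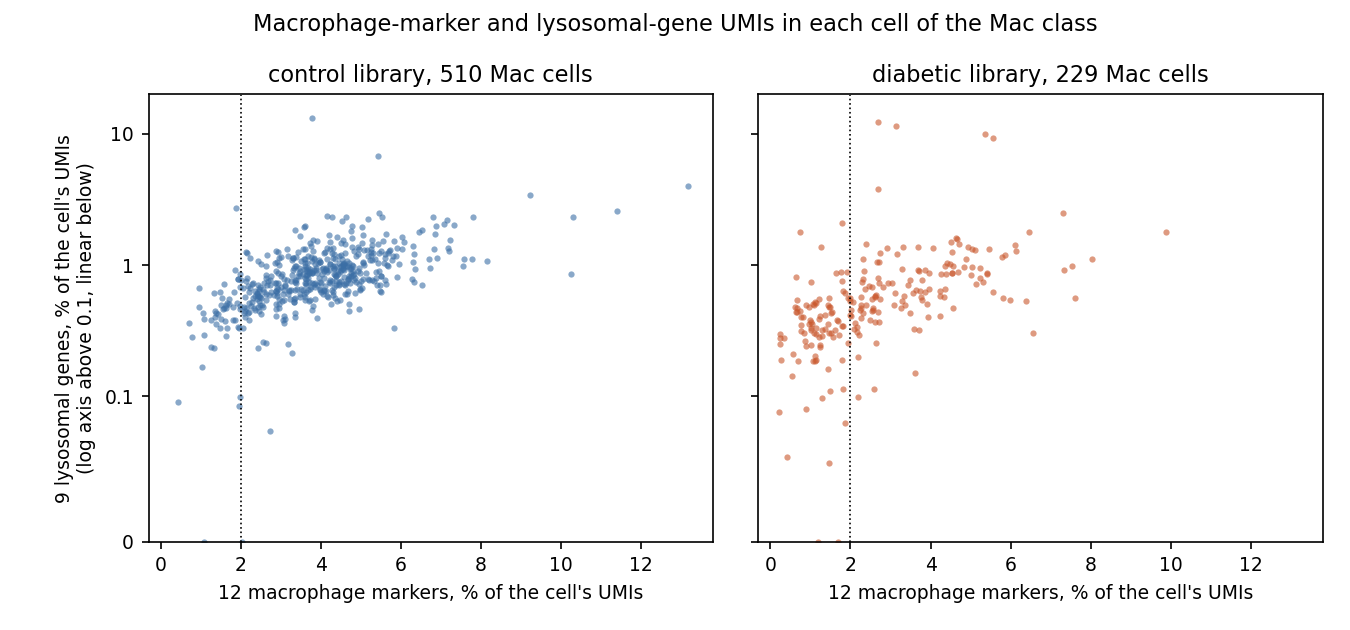
Each point is 1 Mac cell of the control (left, 510 cells) or diabetic library (right, 229 cells), placed by the share of its UMIs from 12 macrophage markers (x axis) and from the 9 lysosomal genes (y axis, logarithmic above 0.1% and linear below). The dotted line marks 2% macrophage-marker UMIs, to the right of which lie 458 control and 134 diabetic cells.

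The macrophage markers of the Mac class moved with these genes. Their sum went from 35239 CPM in control to 22891 CPM in diabetic Mac cells, a ratio of 0.650 (0.641 to 0.659), with 0 of the 12 at 0 in either library. Per UMI of the marker list, control and diabetic Mac cells held 0.0982 and 0.0987 UMIs of Ctsb, 0.0261 and 0.0265 of Ctsd, 0.0194 and 0.0193 of Cd68 and 0.0249 and 0.0237 of Hexa. Ctsl went from 0.0108 to 0.0170 and Npc2 from 0.0307 to 0.0409 on that scale. Of the Mac cells, 89.8% of control and 58.5% of diabetic ones had at least 2% macrophage-marker UMIs. Within those cells 0 of the 8 genes were past the fold: the ratio was 0.906 for Ctsb, 0.868 for Ctsd, 0.863 for Cd68 and 0.757 for Hexa. Ctsl was the only one of the 8 above 1 there, at 1.41 (1.24 to 1.60), and without the cell with most Ctsl UMIs in each library it was at 1.08 (0.938 to 1.25). The 2% limit was chosen after the data were seen. It keeps cells by a marker share that rose with the lysosomal gene share across Mac cells (Spearman rho 0.624 in control, 0.659 in diabetic). The count of 0 of 8 therefore cannot separate the genes from the choice of cells. How far that choice moved the ratios was not tested, and the share of all genes past the fold was not counted in these cells.

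Mac cells below that limit carried more transcripts of several other types. In the 95 diabetic cells under 2%, smooth muscle markers summed to 1226 CPM, against 154 CPM in the 134 cells above it, neutrophil markers to 6571 against 4050 CPM, and haemoglobin and Alas2 to 9027 against 1063 CPM, while fibroblast markers were at 251 against 619 CPM. In the 52 control cells under 2% the smooth muscle sum was 1023 CPM, against 144 CPM in the 458 above it, the neutrophil sum 17250 against 1807 CPM and the erythroid sum 28251 against 176 CPM. Fibroblast markers were higher under 2% in control, at 887 against 480 CPM, the opposite of the diabetic library. Across the whole class the ratio was 2.75 for the smooth muscle list, 1.42 for the neutrophil list, 1.43 for the foam cell list and 1.38 for the erythroid list. It was 1.41 for the T and NK cell list. Other lists were lower, at 0.718 for monocyte and dendritic cell, 0.546 for B cell, 0.632 for endothelial and 0.812 for fibroblast markers. The osteoclast list had a ratio of 0.781 (0.603 to 1.004), and lists with under 100 UMIs over both libraries are left out. The part of these transcripts in the Mac ratios of the 9 genes was not tested. Across cells, the marker share and the 9-gene share had a Spearman rho of 0.624 in the 510 control and 0.659 in the 229 diabetic Mac cells, which share a library and a UMI total per cell.

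By share of cells, thinned to 1000 UMIs, 93.4% of control Mac cells (90.8 to 95.4) and 76.4% of diabetic Mac cells (69.9 to 82.1) had a Ctsb UMI. For Hexa the shares were 59.6% (55.1 to 63.9) and 39.7% (32.8 to 46.9), and for Cd68 48.1% (43.6 to 52.6) and 37.7% (30.9 to 44.8). Ctsd shares were 52.9% (48.4 to 57.4) and 42.7% (35.7 to 49.9), with overlapping intervals. Unthinned, they were 87.3% and 75.1% for Ctsd, 90.2% and 78.6% for Hexa and 88.6% and 69.4% for Cd68, at median depths of 4506 and 4129 UMIs. Thinning left out 13 control and 30 diabetic Mac cells.

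In Fib-2 cells all 9 genes had a ratio below 1, and Ctsk was the lowest of those with at least 100 UMIs. Ctsk went from 425 CPM (1547 UMIs in 907 cells) in control to 199 CPM (421 UMIs in 533 cells) in diabetic Fib-2 cells, a ratio of 0.468 (0.419 to 0.521). Over its 7 alternatives of scaling and cell choice the ratio ran from 0.457 to 0.538. The share of Fib-2 cells with a Ctsk UMI was 27.7% (24.8 to 30.7) in control and 15.6% (12.6 to 18.9) in diabetic cells after thinning to 1000 UMIs, and 64.7% and 42.2% unthinned, at median depths of 3770 and 3656 UMIs. The intervals of both quantities were separate.

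**Figure D4:**
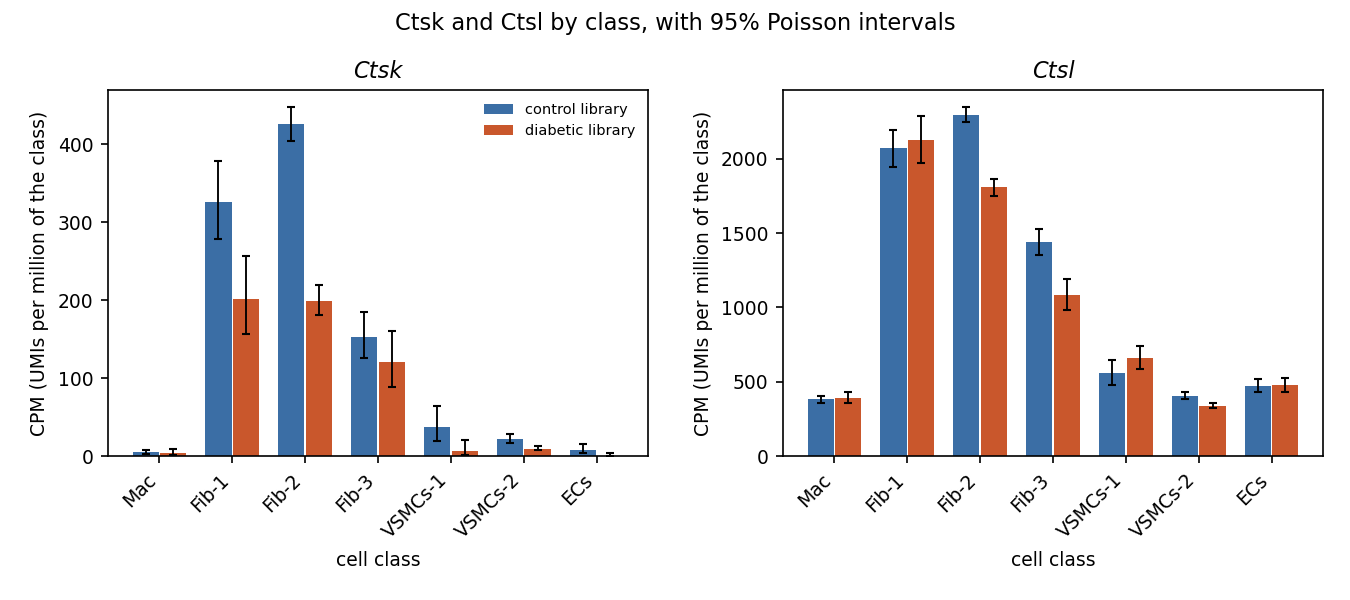
CPM of Ctsk (left) and Ctsl (right) in the 7 compared classes; bars are the control (blue) and diabetic (orange) library and error bars 95% Poisson intervals. The Ctsk bar of Fib-2 goes from 425 to 199 CPM, while Ctsl of Fib-1 is at 2071 and 2128 CPM with overlapping intervals.

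Past the fold in Fib-2 were 2 of 9 genes, Ctsk and Cd68, both lower, against 6.17% of 9281 measured genes that were lower and 14.8% past it either way. The Cd68 ratio of 0.441 (0.196 to 0.899) came from 39 and 10 UMIs, or 10.7 and 4.73 CPM. How many of these UMIs were free RNA was not measured. Ctsd went from 949 to 697 CPM, a ratio of 0.734 (0.691 to 0.781), Ctsz from 678 to 530 CPM, a ratio of 0.783 (0.729 to 0.840), and Ctsl from 2297 to 1810 CPM, a ratio of 0.788 (0.758 to 0.819). Ctsb (0.849), Hexa (0.855) and Npc2 (0.905) were closer to 1 with intervals below it, and Lipa (0.924, 0.749 to 1.14) had an interval that spans 1. The median log2 ratio was -0.34 over the 9 genes and 0.03 over all measured genes.

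Other transcripts moved in Fib-2 as well. The fibroblast list of 7 genes had a ratio of 0.763 (0.756 to 0.770), the macrophage list 0.222 and the chondrocyte-like list 0.294, while smooth muscle markers had a ratio of 1.46 and erythroid genes went from 139 to 7993 CPM. Leaving out the Fib-2 cells with 2 or more macrophage-marker UMIs, 156 control and 14 diabetic ones, gave a Ctsk ratio of 0.460 (0.410 to 0.515). Scaling without mitochondrial, ribosomal protein and haemoglobin genes gave 0.491 (0.440 to 0.547). The part of the lower fibroblast markers in the Ctsk ratio was not tested.

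In the other fibroblast classes Ctsk was also lower. Fib-1 went from 326 CPM (170 UMIs) to 202 CPM (67 UMIs), a ratio of 0.619 (0.459 to 0.826), which was the only one of 8 measured genes past the fold there, against 11.9% of 3423 genes that were lower and 19.7% past it either way. Fib-1 cells were shallow, with median depths of 1410 and 1240 UMIs, and with equal weight for every cell the Ctsk ratio was 0.695, inside the fold. Fib-3 gave 153 and 121 CPM, a ratio of 0.789 (0.550 to 1.12) that does not exclude 1, and 22 of the 110 control UMIs came from 1 cell. Of 8 genes measured in Fib-3, 0 were past the fold, against 13.6% of 4026 genes that were lower and 21.6% past it either way. Its Ctsl ratio was 0.755 (0.673 to 0.845) and its Ctsd ratio 0.734 (0.613 to 0.876). Hexa pointed the other way in Fib-3 at 1.24 (0.995 to 1.54), yet thinning to 1000 UMIs gave 0.582. Ctsb in Fib-3 was at 0.801 (0.691 to 0.926), and Ctsz (0.904), Npc2 (0.983) and Lipa (1.20, from 18 and 12 UMIs) had intervals that span 1. Ctsl in Fib-1 was level at 1.03 (0.933 to 1.13), Npc2 was at 0.841 (0.706 to 0.999), and the intervals of Ctsb (0.858), Ctsd (0.884), Hexa (0.879), Ctsz (0.948) and Lipa (0.849) span 1.

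In the smooth muscle and endothelial classes most measured ratios lay inside the fold. In VSMCs-2 all 9 ratios were below 1, and 2 of 9 genes were lower past the fold, against 5.69% of 9729 genes that were lower and 14.3% past it either way. Those 2 rested on few UMIs: Ctsk had a ratio of 0.438 (0.298 to 0.643) from 60 and 54 UMIs, or 21.6 and 9.44 CPM, and Cd68 a ratio of 0.575 (0.353 to 0.944) from 33 and 39 UMIs, or 11.9 and 6.82 CPM. Ctsb stood at 854 and 678 CPM, a ratio of 0.795 (0.755 to 0.837), Hexa at 157 and 115 CPM, a ratio of 0.736 (0.651 to 0.832), and Ctsd at 592 and 528 CPM, a ratio of 0.892 (0.839 to 0.947). Ctsl (0.831), Ctsz (0.832) and Npc2 (0.886) also had intervals below 1, and Lipa (0.841, 0.605 to 1.18) did not. Fibroblast markers had a ratio of 0.603 and macrophage markers of 0.224 in this class, and their part in the Ctsk and Cd68 ratios was not tested.

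In VSMCs-1, 0 of 6 measured genes were past the fold, against 10.4% of 3032 genes that were lower and 19.1% past it either way. Ctsb stood at 969.9 and 917 CPM, a ratio of 0.946 (0.814 to 1.10), and Ctsd at 741 and 796 CPM, a ratio of 1.07 (0.908 to 1.27). Ctsl had the highest ratio of the 6 at 1.19 (0.986 to 1.44), Ctsz was at 0.802, Npc2 at 0.840 and Hexa at 0.885, and all 6 intervals span 1. ECs had 0 of 7 past the fold, against 8.53% of 6096 genes that were lower and 16.7% past it either way. Hexa had a ratio of 0.713 (0.607 to 0.836; 401 and 286 CPM) and Ctsd of 0.759 (0.683 to 0.844; 859 and 652 CPM) in ECs, both below 1, as were Ctsb (0.858, 0.760 to 0.967) and Ctsz (0.823, 0.697 to 0.972). Ctsl (1.01) and Npc2 (0.999) were level, and Lipa was at 1.05 (0.662 to 1.66). Ctsk had 9 control UMIs and 0 diabetic ones in ECs.

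Classes of 10 to 49 cells in either library are given as ratios only. In Foam cells (35 and 17 cells) Ctsb had a ratio of 0.823 (0.766 to 0.885), Hexa of 0.805 (0.660 to 0.979) and Cd68 of 1.04 (0.876 to 1.24). Ctsl went from 944 to 320 CPM there, a ratio of 0.338 (0.244 to 0.462), but 1 cell held 38.3% of the control Ctsl UMIs. Ctsd in Foam cells was at 3257 and 3743 CPM, a ratio of 1.15 (1.03 to 1.28), with 36.8% of the diabetic UMIs in 1 cell, and the median over cells went from 15.6 to 9.001 UMIs per 10000. The macrophage list had a ratio of 0.627 in Foam cells and the foam cell list of 0.893.

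In MoDC (27 and 30 cells) the ratios of 7 genes ran from Ctsl at 0.425 (0.239 to 0.732) and Lipa at 0.456 (0.198 to 0.989) to Ctsz at 0.661 (0.531 to 0.822). Ctsb (0.613), Ctsd (0.559), Cd68 (0.652) and Hexa (0.638) were in between, and Npc2 was at 1.05 (0.862 to 1.28). Marker lists differed in MoDC as well, with the neutrophil list at 452 and 3 UMIs and a smooth muscle ratio of 0.376. The T and NK cell list had 10 and 57 UMIs, the macrophage ratio was 0.867 and the monocyte and dendritic cell ratio 1.05. The part of these lists in the MoDC ratios was not tested. Ctsb also had a ratio of 0.256 (0.160 to 0.402) in NKT Cells from 67 and 29 UMIs and of 0.224 (0.0845 to 0.504) in B Cells from 40 and 7 UMIs, where 1 cell held 18 of the 40 control UMIs. The macrophage list moved with it, from 6351 to 1906 CPM in NKT Cells, a ratio of 0.300 (0.257 to 0.350), and at 0.475 (0.325 to 0.682) in B Cells. Per macrophage-marker UMI, NKT Cells held 0.137 and 0.117 UMIs of Ctsb. In B Cells that value was lower in the diabetic library, at 0.354 and 0.167. For the class labelled Mono (9 and 19 cells) levels only are given: Ctsb stood at 2715 and 3147 CPM, Ctsd at 2120.1 and 1561 CPM and Npc2 at 2508 and 2049 CPM, and 1 control cell held 62.2% of the Ctsd UMIs. In T cells (13 and 60 cells) the measured genes Ctsb, Ctsd, Ctsl and Npc2 had intervals that span 1.

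Over all annotated cells together, 8 of the 9 genes were lower past the fold, against 11.2% of 12753 genes that were lower and 21.5% past it either way. Cd68 went from 188 to 76.9 CPM, a ratio of 0.409 (0.378 to 0.442), Ctsk from 156 to 51.1 CPM, a ratio of 0.327 (0.298 to 0.358), and Ctsb from 1570.2 to 932 CPM, a ratio of 0.594 (0.580 to 0.608). Ctsd alone stayed inside the fold, at 0.725 (0.704 to 0.747). These totals mix the levels within classes with the class shares given above, since fewer Mac and Fib-2 cells and more VSMCs-2 cells made up the diabetic library.

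Other genes of the lysosome were read from 7 lists with 99 genes by role. In Mac, where 9.37% of all measured genes were lower past the fold and 23.3% past it either way, 5 of 8 measured further cathepsins were lower and 0 higher. Ctsc, which activates the serine proteases of immune cells, went from 1348 to 699 CPM, a ratio of 0.519 (0.480 to 0.561), Ctss, the cysteine protease of antigen-presenting cells, from 1882 to 1204 CPM, a ratio of 0.640 (0.602 to 0.679), and Ctso had a ratio of 0.584 from 115 and 29 UMIs. Of 33 other hydrolases measured in Mac, 7 were lower and 0 higher, with Lyz2 (lysozyme) at 0.661 and the acid ceramidase Asah1 at 0.595 (0.508 to 0.694). Of 5 cathepsin inhibitors, 1 was lower, Serpinb6a at 0.595 (0.510 to 0.692), and 1 higher, Cst7 at 1.74 (0.827 to 3.57) from 20 and 15 UMIs. Among 15 proton pump subunits, 2 were lower (Atp6ap2 at 0.646 and Atp6v1c1 at 0.663). Grn (0.656) and Laptm4a (0.630) were lower and Gm2a, the GM2 activator that presents the ganglioside to hexosaminidase A, was higher at 1.59 (1.38 to 1.83) among 12 activators and carriers. None of 5 membrane glycoproteins and 0 of 8 sorting or transcriptional regulators passed the fold in Mac. The median log2 ratio was -0.65 for the cathepsin list and -0.27 for the hydrolase list, against 0.06 over all measured genes. The macrophage-marker difference described above applies to these Mac values too.

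In Fib-2, the hydrolases Acp5 (tartrate-resistant acid phosphatase, 87.2 and 44.9 CPM, a ratio of 0.515, 0.405 to 0.650) and Neu1 (0.614, 0.435 to 0.854) were lower, and Arsb, which removes sulfate from dermatan sulfate, was higher at 1.70 (1.28 to 2.27). In all, 4 of 33 hydrolases were lower and 1 higher there, a share past the fold close to the 14.8% of all measured genes. Lyz2, a myeloid transcript, had ratios of 0.0911 (Fib-3), 0.205 (Fib-2) and 0.219 (VSMCs-2). Laptm4b (0.655) and the protease inhibitor Serpinb1a (0.368) were also lower in Fib-2, and 0 of 15 pump subunits passed the fold. In Fib-3 the secreted cathepsin inhibitor Cst3 (cystatin C) went from 2645 to 4220.3 CPM, a ratio of 1.60 (1.49 to 1.70), with 17.9% of the diabetic UMIs in 1 cell, while Serpinb6a (0.603) and Grn (0.583) were lower.

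In Fib-1, Laptm4a (0.663), Lyz2 (0.481) and Atp6ap2 (0.650) were lower. VSMCs-2 cells had lower Ctsc (0.602, 0.505 to 0.719), Pla2g15 (0.568) and Laptm4b (0.640) and higher Atp6v0a1 (1.52, 1.07 to 2.18). The acid ceramidase gene Asah1 was lower in VSMCs-1 (0.611, 0.421 to 0.884) and in ECs (0.616, 0.473 to 0.797), as it was in Mac, and Atp6v0b was lower in VSMCs-1 (0.658). Membrane glycoproteins such as Lamp1, Lamp2 and Cd63 gave 0 of 5 past the fold in each of the 7 classes. Of all measured genes, 14.3% (VSMCs-2) to 23.3% (Mac) were past it either way, so 0 of 5 is not far from that share.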

How the data were processed

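Aortic cells of 1 control and 1 diabetic pool were profiled with 10x 3′ chemistry. The authors deposited UMI counts, unscaled, for every gene and barcode of each library. Per the submitters' processing notes the tools were Cell Ranger 3.1.0 and Partek (no version) and the build mm10. Which gene annotation and which filter on barcodes they used is not given in the sources used here. Cell classes are the authors' deposited annotation, and only barcodes with a class entered the comparisons, so 2 diabetic ones with a blank class did not. No doublet caller was run, so the effect of removing doublets was not tested. The number of unused columns of per-sample values was 0.

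UMIs were summed per library and class, scaled to CPM and compared as ratios with Python 3.11.15, numpy 2.4.6, scipy 1.17.1 and pandas 2.3.3, with no test, since each group is 1 library. A count of 0 was given a limit of 3 UMIs. Cells with a class held 12390769 control and 11833577 diabetic UMIs, out of 15314749 and 17647604 over all barcodes. The width of an interval depends on the UMIs of the gene in the class. Thinning used seed 1. The trimmed mean scaling used edgeR 4.0.16 in R 4.3.3.

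The 9 genes are given in each compared class in which they were measured. From each lysosome list and class at most 3 genes each way are named, with at least 100 UMIs, past 1.5-fold and with an interval excluding 1; Lamp1, Lamp2, Cd63 and Cst7 are named beyond it, chosen after their values were seen. Some genes of the lists are not reported here by name. Nearest patterns were sought among genes with at least 200 UMIs. The genes and lists were chosen with earlier results of these data known. The ratio calculation was tested on simulated data with known fold changes.

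Alternatives were other scaling, equal cell weight, thinning, other UMI minimums, a 2-fold limit and leaving out cells or the cell with most UMIs of a gene.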

Additional observations from a re-analysis of the deposited data

Results flagged for a closer look

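Ctsd in Foam cells had a diabetic over control ratio of 1.15 (1.03 to 1.28; 828 and 574 UMIs in 35 and 17 cells), whereas in Mac, Fib-2, Fib-3, VSMCs-2, ECs and MoDC, 6 classes in all, its ratio was below 1 with an interval that excludes 1. The opposite directions in 1 library per group drew attention to it, and the difference between the classes was not tested. A single diabetic Foam cell held 36.8% of the Ctsd UMIs, and the median Ctsd level over Foam cells pointed the other way, at 15.6 UMIs per 10000 in control and 9.001 in diabetic cells.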

How the results depend on the processing

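No paired analysis was possible because each group is 1 library, and for the same reason no replicate could be left out. Of 393 alternative ratios of the 9 genes, 346 stayed within the main interval and 45 moved out of it on the same side of 1 or from a main ratio inside the fold. From ratios past the fold, 2 crossed 1: Ctsd in Mac to 1.07 with equal cell weight, and Cd68 in VSMCs-2 to 1.74 (0.527 to 7.40) after thinning. From 12 ratios inside the fold, 26 alternatives crossed 1. The count of genes lower past the fold in Mac, 4, became 1 when scaled without mitochondrial, ribosomal protein and haemoglobin genes, 0 with equal cell weight, 1 after thinning, 2 without the 5% of cells with most UMIs, 0 in cells of at least 2% macrophage-marker UMIs, with or without the cell with most UMIs of each gene (both chosen after seeing the data), and 0 at 2-fold. In Fib-1 the count of 1 became 0 with equal cell weight, 0 without the 5% of cells with most UMIs and 0 at 2-fold. In Fib-2 the count of 2 became 1 after thinning and 1 with at least 100 UMIs, Ctsk remaining. In Fib-3 the count of 0 became 2 after thinning and 1 with at least 1 UMI in each library, and in VSMCs-1 the count of 0 became 1 with that minimum. In VSMCs-2 the count of 2 became 0 after thinning, 1 with at least 100 UMIs and 1 at 2-fold. Lysosome list genes past the fold at 2-fold instead of 1.5-fold numbered 2 (of 19) in Mac, 3 (of 9) in Fib-1, 1 (of 8) in ECs, 4 (of 9) in Fib-2, 1 (of 7) in VSMCs-1, 3 (of 12) in Fib-3 and 3 (of 11) in VSMCs-2. Thinning leaves fewer UMIs and a 2-fold limit passes fewer genes by construction, and the cause of the other changes was not tested. All 47 ratios outside Mac stayed within their main interval without cells of at least 2 macrophage-marker UMIs. Pooling 4 mice hides the spread between animals, so no interval here covers it.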

Other observations

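Barcodes without a class also carried the 9 genes. Leaving out those with over 50% haemoglobin UMIs, 1126 control barcodes held 6022 CPM (5930 to 6115) of the 9 genes summed and 447 diabetic barcodes 3906 CPM (3825 to 3989). Ctsk stood at 89.9 CPM in the control and 11.0 CPM in the diabetic barcodes, Ctsb at 2032 and 1451 CPM and Lipa at 77.7 and 81.6 CPM. The labels put these barcodes in no cell class, so the values are given without a comparison of classes.

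The Mac cell with the highest share of the 9 genes in each library was shallow, with 503 UMIs in control and 1372 UMIs in diabetic cells against class medians of 4506 and 4129. The genes made up 13.1% and 12.4% of their UMIs. Ctsl alone gave 27 and 83 of these UMIs, Lyz2 82 and 102, and the foam cell gene Spp1 19 and 43.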
